A study of Rattus norvegicus with 12 samples.

Results

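Adipokines are proteins that fat cells secrete and through which fat depots reach other organs. The transcripts of 9 of them were read in epididymal adipocytes: Adipoq, Lep, Retn, Rarres2, Cfd, Nampt, Rbp4, Apln and Agt. They were chosen by name, as every non-control probe of the array whose gene name was one of these 9. Each of the 9 genes had exactly 1 probe, so that 9 of the array's 30367 probes are described, and each was well above background on all 12 arrays and saturated on none.

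The cells came from male Fisher 344 rats, bought at about 12 weeks of age. Of the 12 arrays, 6 hold RNA of CUS rats, which met 2 randomly scheduled stressors a day for 35 days (chronic unpredictable stress, among them swims, rotation, crowding and nights without food or water), and the other 6 hold RNA of control rats, which were handled every 2 days and not stressed. Each array holds the RNA of 1 replicate, and neither group carried a drug or a genetic change. The labels call the cells epididymal adipocytes, while their extraction text speaks of preadipocytes. Well above background on every array were all 10 measured adipocyte markers. They include Fabp4, a fatty acid carrier of fat cells, Plin1, a coat protein of the lipid droplet, and Cidec, a protein that lets droplets fuse. So were 7 of 8 tested fibroblast and preadipocyte markers and all 14 endothelial ones. Detection on every array thus does not settle which of these labels holds.

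Leptin tells the brain how much fat is stored and falls in a fast, whereas adiponectin raises insulin sensitivity and tends to run against fat mass. Resistin, chemerin, retinol-binding protein 4 and visfatin have each been linked to insulin resistance or to inflammation. Adipsin starts the alternative complement pathway, and apelin and angiotensinogen act on vessels. These are background facts about the proteins, whereas the arrays measured transcripts only.

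Values are log2 signals relative to the 75th percentile of the same array, and differences are CUS minus control on the log2 scale. Signals of different probes cannot be set against each other, since each probe binds its target differently. The 75th percentile lay between 541.11 and 626.86 intensity units on CUS arrays and between 229.57 and 399.77 on control arrays. All CUS arrays lay on 1 slide and all control arrays on another, so for every value below the slide and the group cannot be told apart. Control replicate 3 stood apart from the other control arrays, with an adipocyte marker mean of 5.46, against 4.61 to 4.76 in the other 5, and an endothelial marker mean of -0.26, against 1.26 to 1.66. Results that turn on it are given with and without it.

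Of the 9 adipokines, 3 were higher on CUS arrays and 2 lower, and the remaining 4 missed the threshold (limma, two-sided, adjusted p under 0.05). Of 17392 genes tested, 50% passed, 24.2% higher and 25.8% lower, so 5 of 9 (55.6%) is near the share of the whole array. The median difference of the 9 was 0.15, against -0.025 over all genes. Rarres2, Nampt and Lep were the higher transcripts, Retn and Cfd the lower ones, and Adipoq, Rbp4, Apln and Agt did not pass. Without control replicate 3, 8 of the 9 passed, all but Agt, against 10373 of the 17392 genes. Values of CUS and control arrays did not overlap for Rarres2 and Nampt, 2 of 9, against 21.9% of all genes. One of the 9, Rarres2, passed with a change of at least 2-fold, against 12.0% of all genes.

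**Figure D1:**
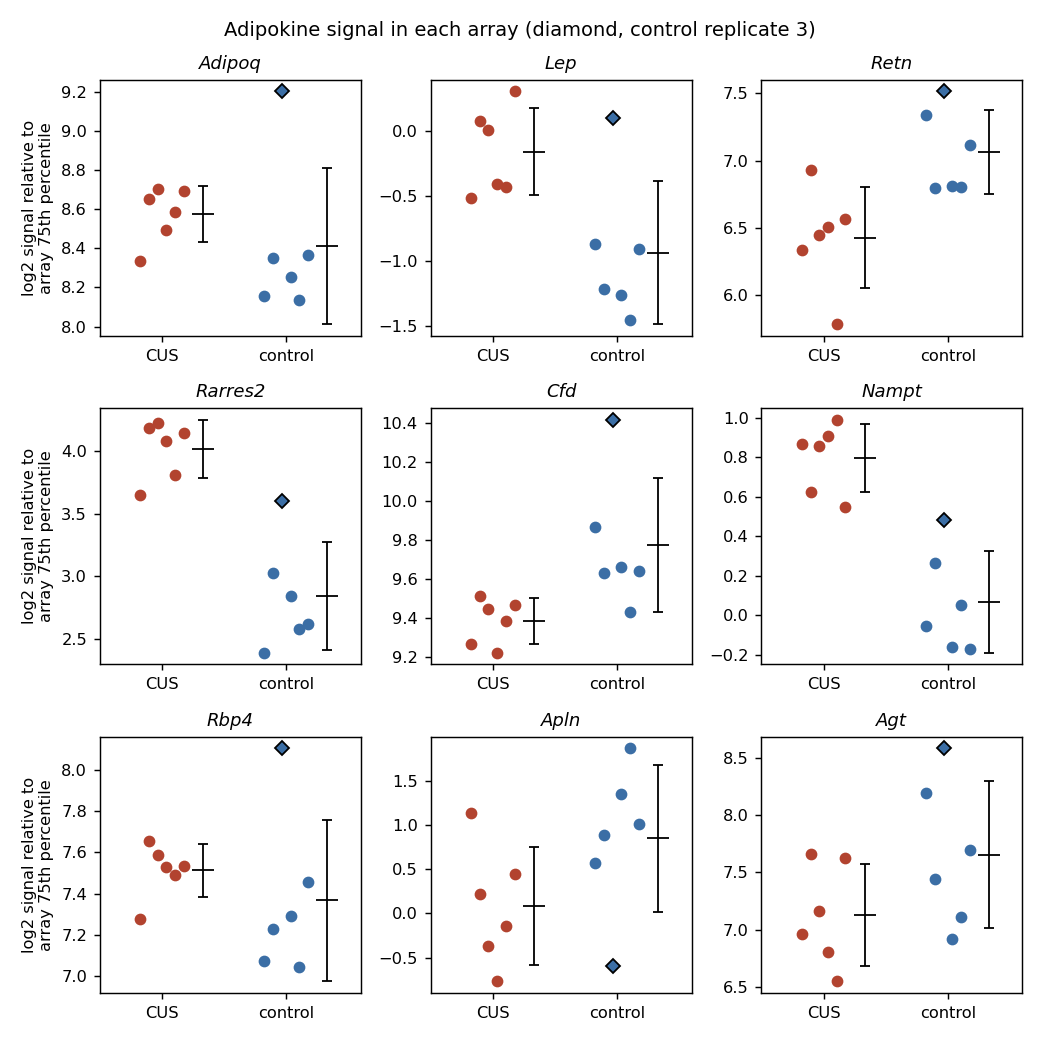
Log2 signal relative to the array's 75th percentile (vertical axes) of the 9 adipokine transcripts, 1 point per array, CUS left and control right, with the mean and SD beside the points (n = 6 each) and control replicate 3 as a diamond. Rarres2 and Nampt had no control value as high as the lowest CUS value, and control replicate 3 was the highest control array for every transcript but Apln, where it was the lowest.

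Rarres2 encodes chemerin, which draws immune cells to tissue and also acts on fat cells. Its lowest, median and highest values were 3.65, 4.11 and 4.23 on CUS arrays, against 2.39, 2.73 and 3.60 on control arrays. The lowest CUS array thus stood just above the highest control array, control replicate 3. The difference was 1.18 (SE 0.19), or 2.26-fold, with an adjusted p of 0.00038 (limma). Without any 1 array it stayed between 1.09 and 1.33 and passed each time. The probe was designed at chr4:76662104-76662442 of build rn4, minus strand, and these 339 positions are longer than its 60 bases. The coordinates and strands of all 9 probes come from the array's design, and no annotation of that build was used here, so exons were not assigned.

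Nampt encodes visfatin, the enzyme that makes nicotinamide mononucleotide and so limits the salvage of NAD. Its values were 0.55, 0.86 and 0.99 on CUS arrays, against -0.17, -0.00066 and 0.48 on control arrays, again without overlap. The difference was 0.73 (SE 0.13), or 1.66-fold, with an adjusted p of 0.00066, and it held without any 1 array (0.68 to 0.81). This was the smallest standard error among the 9. The probe, at chr6:51165369-51165428 (rn4, plus strand), was printed as 10 spots on each array.

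Lep encodes leptin, the hormone that signals fat stores to the hypothalamus. Its values were -0.52, -0.20 and 0.30 on CUS arrays, against -1.45, -1.06 and 0.09 on control arrays. Of the control arrays, 5 lay below every CUS array, and control replicate 3 lay among the CUS values. The difference was 0.77 (SE 0.24), or 1.71-fold, with an adjusted p of 0.019, and it was 0.98 without control replicate 3. It passed without any 1 array, with an adjusted p of up to 0.042. The probe has its place at chr4:55945879-55945938 (rn4, plus strand).

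The Lep and Nampt probes are shown because they are what was hybridised for a pair of the 3 higher transcripts. In the Lep probe capitals mark the stop codon, at bases 52 to 54, and the frame it closes holds no earlier stop.
Lep probe: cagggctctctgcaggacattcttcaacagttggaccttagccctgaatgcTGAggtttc
Nampt probe: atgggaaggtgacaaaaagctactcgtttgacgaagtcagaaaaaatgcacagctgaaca
The Lep probe therefore covers the end of the coding sequence and 6 bases after it. GC content was 51.7% in the Lep probe and 41.7% in the Nampt probe.

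Retn encodes resistin, which in rodents is made by fat cells and opposes insulin in the liver. Its values were 5.78, 6.47 and 6.93 on CUS arrays, against 6.80, 6.96 and 7.52 on control arrays. Of the CUS arrays, 5 lay below every control array, and CUS replicate 2 lay within the control range. The difference was -0.64 (SE 0.19), an adjusted p of 0.014, and it ranged from -0.74 to -0.51 and passed without any 1 array. Its probe lies at chr12:2499633-2499692 (rn4, minus strand). In build GRCr8 the annotated start of Retn is on the plus strand, and the reason for this difference was not tested.

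Cfd encodes adipsin, or complement factor D, the protease that cleaves factor B. Its values were 9.22, 9.42 and 9.52 on CUS arrays, against 9.43, 9.65 and 10.41 on control arrays. In all, 5 of 6 control values lay above the highest CUS value. The difference of -0.39 (SE 0.14, adjusted p = 0.038) lost its call when 1 of 5 arrays was left out: CUS replicates 1, 3, 4 and 5 and control replicate 1, with an adjusted p of up to 0.079. Quantile normalization gave -0.11 (adjusted p = 0.25). The probe lies at chr7:11325547-11325604 (rn4, minus strand).

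Adipoq encodes adiponectin. Its values were 8.33, 8.62 and 8.70 on CUS arrays, against 8.14, 8.30 and 9.20 on control arrays. CUS arrays lay inside the control range, whose upper end was control replicate 3 alone. The difference was 0.17 with a 95% interval of -0.19 to 0.52 (adjusted p = 0.42), and without control replicate 3 it was 0.32 (adjusted p = 0.0079). It passed with quantile normalization too, at 0.29 (adjusted p = 0.036). Its probe lies at chr11:79908299-79908358 (rn4, minus strand).

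Rbp4 encodes the protein that carries retinol in blood. Its values were 7.28, 7.53 and 7.66 on CUS arrays, against 7.05, 7.26 and 8.11 on control arrays. As with Adipoq, control replicate 3 was the highest array and the other 5 control arrays lay at or below 7.46. The difference was 0.15 with an interval of -0.20 to 0.49 (adjusted p = 0.47), and 0.29 without that array (adjusted p = 0.021). The probe lies at chr1:242443795-242443854 (rn4, minus strand).

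Apln encodes apelin, a peptide that dilates vessels and strengthens the heart beat. Its values were -0.77, 0.04 and 1.13 on CUS arrays, against -0.59, 0.95 and 1.86 on control arrays. Both groups spread more widely than for any other of the 9 transcripts. The difference was -0.76 with an interval of -1.61 to 0.09 (adjusted p = 0.12). It passed without control replicate 3 (-1.05, adjusted p = 0.013) and without CUS replicate 1 (-0.97, adjusted p = 0.049). The design places the probe at chrX:134387384-134387443 (rn4, minus strand), printed as 10 spots.

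Agt encodes angiotensinogen, from which renin cuts angiotensin I. Its values were 6.55, 7.06 and 7.66 on CUS arrays, against 6.92, 7.57 and 8.58 on control arrays. There were 2 CUS arrays below every control array and 3 control arrays above every CUS array. The difference was -0.53 with an interval of -1.16 to 0.10 (adjusted p = 0.14), and leaving out any 1 of the 12 arrays did not make it pass. The design places the probe at chr19:54738614-54738673 (rn4, minus strand).

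The direction of several members depended on what each array was scaled on. Spike-in control probes, RNA added in known amounts, moved the median difference of all genes to 0.82. On that scale 6 of the 9 passed, all higher, against 11853 of 17392 genes. Of all calls 96.3% were higher there, against 48.5% with the 75th percentile. Retn (0.21), Cfd (0.45), Agt (0.31) and Apln (0.083) then had positive differences, yet each below that median. Of these, Cfd passed as higher (adjusted p = 0.037), opposite to its call with the 75th percentile, and Retn, Agt and Apln did not pass. Scaling on the mean of the adipocyte markers instead moved the median of all genes to -0.34 and the share of higher calls to 17.7%. It gave 3 members higher and 3 lower, against 7890 of 17392 genes past the test. There Adipoq (-0.15) and Rbp4 (-0.17) turned negative without passing, and Agt passed (-0.85, adjusted p = 0.015). Rarres2, Nampt and Lep were higher and passed on all of these scales, with Rarres2 at 2.02 on the spike-in scale and 0.86 on the adipocyte marker scale.

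**Figure D2:**
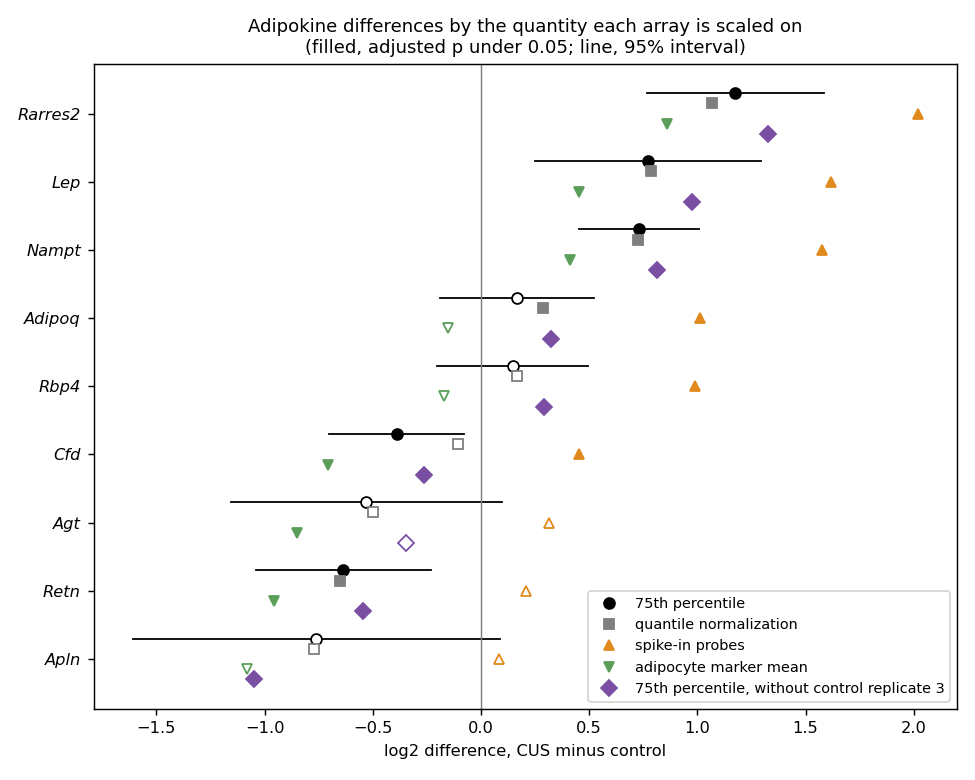
Log2 difference, CUS minus control (horizontal axis), of each adipokine under 4 scalings and without control replicate 3, filled where the adjusted p was under 0.05, with the 95% interval of the 75th-percentile value as a line. Rarres2, Lep and Nampt stayed right of 0 and filled throughout, while Cfd, Agt, Retn and Apln lay left of 0 except on the spike-in scale.

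The ratio of 1 transcript to another within an array does not depend on that scaling. Lep minus Adipoq on the log2 scale had lowest, median and highest values of -9.02, -8.78 and -8.39 on CUS arrays, against -9.59, -9.39 and -9.03 on control arrays. Every CUS array was thus above every control array, though CUS replicate 5 and control replicate 1 nearly met. The difference was 0.61, or 1.52-fold (exact permutation test, two-sided, p = 0.0022, the smallest that 6 against 6 arrays can give). In the authors' normalized table the same difference was 0.52 (exact permutation p = 0.054), and with normexp background correction it was 0.32 (exact permutation p = 0.026).

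Set against Adipoq in the same way, Rarres2 was higher by 1.01 on CUS arrays, while Retn fell by 0.80 and Cfd by 0.56, and none of these 3 ratios overlapped between the groups. Cfd minus Adipoq was 0.81 ± 0.08 on CUS arrays and 1.36 ± 0.18 on control arrays (SD, n = 6 each). Rbp4 kept its level relative to Adipoq most closely, at -1.06 ± 0.07 on CUS arrays and -1.04 ± 0.09 on control arrays. Ratios of Nampt, Apln and Agt to Adipoq overlapped between the groups. The share of all genes whose ratio to Adipoq did not overlap is not given here. Neither these ratios nor that of Lep can therefore be set against the whole array.

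**Figure D3:**
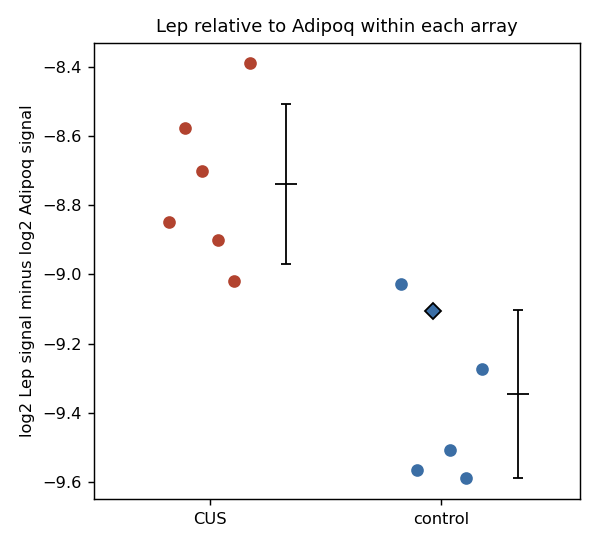
Log2 Lep signal minus log2 Adipoq signal within each array (vertical axis), 1 point per array, CUS left and control right, with the mean and SD beside the points (n = 6 each) and control replicate 3 as a diamond. The 6 CUS values, from -9.02 to -8.39, lay above the 6 control values, from -9.59 to -9.03.

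The regions before the start sites are shown for the 4 members past the test that had an entry in the RefSeq promoter table, and for Adipoq, against which Lep was set. Of the 9 members, 7 had an entry. Each line gives the 150 bases before the annotated start, 5′ to 3′, in build GRCr8: Rarres2 at chr4:78856409-78856558, minus strand, Lep at chr4:58626388-58626537, plus strand, Retn at chr12:6508624-6508773, plus strand, Cfd at chr7:10465497-10465646, minus strand and Adipoq at chr11:91240170-91240319, minus strand. Capitals mark exact matches, on either strand, to any of 8 motifs: TATAAA (the TATA box), CCAAT (the CCAAT box), GGGCGG (the GC box), TTGCGCAA (a palindrome that C/EBP factors bind), CACGTG (the E box), AGGTCA (the hexamer of nuclear receptors such as PPAR and RXR), AGAACA (the hexamer of the glucocorticoid receptor) and TGANTCA (the AP-1 site).
Rarres2: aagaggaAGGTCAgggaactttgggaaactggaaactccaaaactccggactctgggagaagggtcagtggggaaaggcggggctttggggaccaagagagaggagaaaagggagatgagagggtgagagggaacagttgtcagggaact
Lep: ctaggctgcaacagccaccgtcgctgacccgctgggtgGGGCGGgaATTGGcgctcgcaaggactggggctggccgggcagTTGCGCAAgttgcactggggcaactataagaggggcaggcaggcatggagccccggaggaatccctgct
Retn: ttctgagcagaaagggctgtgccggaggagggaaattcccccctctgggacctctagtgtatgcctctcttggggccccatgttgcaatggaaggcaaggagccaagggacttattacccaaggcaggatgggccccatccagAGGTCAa
Cfd: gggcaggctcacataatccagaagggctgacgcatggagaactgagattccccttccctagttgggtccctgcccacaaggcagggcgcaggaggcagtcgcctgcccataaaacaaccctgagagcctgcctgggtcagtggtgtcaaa
Adipoq: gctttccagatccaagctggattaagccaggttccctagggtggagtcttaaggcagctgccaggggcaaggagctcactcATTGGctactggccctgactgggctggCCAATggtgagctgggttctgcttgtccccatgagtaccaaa
Lep held a GC box, a CCAAT match and the C/EBP palindrome, Adipoq held 2 CCAAT matches, Rarres2 and Retn each held 1 nuclear receptor hexamer, and Cfd held none of the 8 in these bases. No match overlapped another. Over 33469 promoter windows of 300 bases, from 250 before to 50 after the start, 0.17% held the C/EBP palindrome, 33.1% a GC box, 37.5% a CCAAT match, 16.2% the nuclear receptor hexamer, 20.7% the glucocorticoid receptor hexamer, 14.2% a TATA box, 6.42% an E box and 7.33% an AP-1 site. The letters of the glucocorticoid receptor hexamer were not in the windows of the 7 members. A match is a match of letters and not a measured site.

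Receptors of the adipokines were measured beside them. Of 10 tested, 7 passed, 3 higher and 4 lower on CUS arrays, against 50% of all genes (24.2% higher and 25.8% lower), the share beside which each list of related genes stands. With quantile normalization 4 of these passed (Adipor2, Cap1, Ccrl2 and Cdh13). Adipor2, an adiponectin receptor, was higher by 0.57 (SE 0.10, adjusted p = 0.00088), at 3.01 ± 0.16 on CUS arrays and 2.44 ± 0.17 on control arrays (SD, n = 6 each), without overlap, but on the adipocyte marker scale the difference was 0.26 (adjusted p = 0.17). Adipor1 differed by 0.22 without passing (adjusted p = 0.077), by 0.27 without control replicate 3 (adjusted p = 0.027) and by -0.09 on the adipocyte marker scale. Cdh13, or T-cadherin, which binds adiponectin on vessel walls, was lower on the 75th-percentile scale (difference -1.28, SE 0.39, adjusted p = 0.018), and its other probe differed by -1.10 (adjusted p = 0.032).

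Chemerin has 1 signalling receptor in the tested set, Cmklr1, and 1 that binds without signalling, Ccrl2. Ccrl2 was higher on CUS arrays by 1.09 (SE 0.36, adjusted p = 0.023), and by 0.77 without passing on the adipocyte marker scale (adjusted p = 0.19). Cmklr1 had a difference of -0.41 (SE 0.13, adjusted p = 0.018), which was 0.43 on the spike-in scale. The transcripts of the ligand, Rarres2, and of Cmklr1 thus moved opposite ways on the 75th-percentile scale. Cap1, a resistin receptor in human monocytes, was higher by 0.46 (adjusted p = 0.0085), and differed by 0.14 on the adipocyte marker scale (adjusted p = 0.61). Stra6, which takes up retinol from Rbp4, differed by -0.63 (adjusted p = 0.025, and 0.057 or 0.050 without control replicate 4 or CUS replicate 5), a value that was 0.22 on the spike-in scale. Mas1, the angiotensin-(1-7) receptor, differed by -1.61 (adjusted p = 0.0070), but was well above background on only 2 CUS and 5 control arrays.

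Aplnr, the apelin receptor, differed by -0.72 (adjusted p = 0.066), and passed without control replicate 3 (-0.94, adjusted p = 0.0061) and on the adipocyte marker scale (-1.04, adjusted p = 0.049). On the spike-in scale its value was 0.13. Agtr1a, an angiotensin II receptor, differed by 0.23 (adjusted p = 0.59) and by -0.09 without control replicate 3. The leptin receptor Lepr and 3 others (Cmklr2, Agtr1b and Agtr2) were not well above background on any array, so nothing can be said of their change.

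Enzymes and signalling proteins that act after adiponectin and leptin gave 3 higher of 10 tested and none lower. The 3 were subunits of AMP-activated kinase, the energy sensor that adiponectin switches on: Prkaa1 (0.63, adjusted p = 0.0022), Prkaa2 (0.70, adjusted p = 0.021) and Prkag1 (0.36, adjusted p = 0.028, and 0.060 or 0.056 without CUS replicate 4 or 6). None of these 3 passed on the adipocyte marker scale. Prkab1, another subunit, differed by -0.25 without passing (adjusted p = 0.12), but without control replicate 3 it passed as lower (-0.34, adjusted p = 0.013). On the spike-in scale it passed as higher (0.59, adjusted p = 0.034). Jak2, Stat3 and Socs3, the leptin receptor's kinase, its target and its inhibitor, did not pass.

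Regulators of adipokine genes gave 4 higher of 12 tested and none lower. Sort1, a sorting receptor of the Golgi, was higher by 0.99 (SE 0.17, adjusted p = 0.00056), and its other probe by 0.67. Cebpa, the C/EBP factor of mature fat cells, was higher by 0.57 (SE 0.17, adjusted p = 0.013) and Pparg, the master regulator of fat cell genes, by 0.52 (SE 0.11, adjusted p = 0.0023). Nr1h3, the oxysterol receptor LXR alpha, was higher by 0.33 (adjusted p = 0.035), a call that leaving out CUS replicate 2, 3 or 6 or control replicate 2, 4 or 5 ended (adjusted p up to 0.078). On the adipocyte marker scale Pparg (0.20) and Nr1h3 (0.01) did not pass.

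Among relatives of adiponectin and resistin, 1 of 8 tested was higher and 3 were lower. C1qtnf1 was higher by 0.95 (adjusted p = 0.0027). C1qtnf12, an insulin-sensitizing secreted protein of fat in mice, was at -2.09 ± 0.29 on CUS arrays and -0.97 ± 0.23 on control arrays (SD, n = 6 each), a difference of -1.12 without overlap (adjusted p = 9.8e-05). C1qtnf6 differed by -1.27 (adjusted p = 0.0081), while its other probe differed by 0.46 (adjusted p = 0.060). C1qtnf2 differed by -1.20 (adjusted p = 0.027). Leaving out CUS replicate 2, 3 or 4 or control replicate 1, 4, 5 or 6 ended that call (adjusted p up to 0.058). On the spike-in scale C1qtnf12 (-0.27), C1qtnf6 (-0.42) and C1qtnf2 (-0.35) did not pass.

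Other secreted proteins of fat gave 7 higher and 1 lower of 21 tested, and 13 passed without control replicate 3. Tnf, the inflammatory cytokine, was at 0.49 ± 0.46 on CUS arrays and -2.24 ± 1.02 on control arrays (SD, n = 6 each), 6.64-fold higher (adjusted p = 0.00025). Ccl2, which recruits monocytes, was at 5.57 ± 0.51 on CUS arrays and 4.04 ± 0.67 on control arrays, 2.87-fold higher (adjusted p = 0.0018). Metrnl, a secreted factor linked to browning of fat in mice, was higher by 0.62 (adjusted p = 0.018), and by 0.30 without passing on the adipocyte marker scale (adjusted p = 0.36). Sfrp5, a Wnt-binding protein of fat, was lower by 0.65 (difference -0.65, adjusted p = 0.0027), though its value was 0.19 on the spike-in scale. Its other probe differed by -0.51 without passing (adjusted p = 0.097).

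Of 15 tested transcripts of the NAD pathway in which Nampt acts, 13 passed, 8 higher and 5 lower, against 50% of all genes. Sirt1, an NAD-dependent deacetylase, was at -3.65 ± 0.21 on CUS arrays and -2.22 ± 0.28 on control arrays (SD, n = 6 each), a difference of -1.43 (adjusted p = 1.3e-05). Qprt, which makes NAD precursor from tryptophan, differed by -1.02 (adjusted p = 0.0015) and Nmnat2, an adenylyltransferase that follows Nampt, by -0.85 (adjusted p = 0.0054). Nadsyn1, which completes NAD on the route from nicotinic acid, was higher by 0.73 (adjusted p = 0.00093). On the percentile scale the list therefore did not move one way with Nampt. The other lower transcripts there were Nmnat1 (-0.48) and Sirt6 (-0.26, a call that leaving out any of 7 arrays ended, adjusted p up to 0.067). On the spike-in scale 11 of the 15 passed, against 11853 of 17392 genes. Sirt1 passed as lower there (-0.59, adjusted p = 0.044) and Sirt6 as higher (0.59, adjusted p = 0.015). Qprt (-0.18), Nmnat2 (-0.01) and Nmnat1 (0.37) did not pass on it. On the adipocyte marker scale 7 of the 15 passed, against 7890 of 17392 genes on that scale.

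Of the renin-angiotensin genes, 3 of 13 tested were higher and 2 lower, and 8 passed without control replicate 3. Ace, which makes angiotensin II, differed by -1.62 (SE 0.28, adjusted p = 0.00058), and its other probe by -1.45. Atp6ap2, the prorenin receptor, was higher by 0.57 (adjusted p = 0.011), and by 0.26 without passing on the adipocyte marker scale (adjusted p = 0.22). Nln, a peptidase, was higher by 0.32 (adjusted p = 0.025), a call that leaving out CUS replicate 3 or 4 or control replicate 4 or 5 ended (adjusted p up to 0.057), and the difference was -0.0017 on the adipocyte marker scale. Thop1, also a peptidase, differed by -0.27 (adjusted p = 0.040), which was 0.57 on the spike-in scale, and leaving out CUS replicate 2, 4 or 5 or control replicate 1, 3 or 4 ended the call (adjusted p up to 0.086). The fifth, Cma1, a mast cell chymase that in humans can form angiotensin II, is given with the mast cell markers below.

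In retinoid handling 3 of 12 tested were higher and 2 lower, and 8 passed without control replicate 3. Crabp2, which carries retinoic acid to the nucleus, was at -0.93 ± 0.37 on CUS arrays and 0.77 ± 0.61 on control arrays (SD, n = 6 each), a difference of -1.70 (adjusted p = 0.00033). Rara, a retinoic acid receptor, differed by -0.77 (adjusted p = 0.0036), a value that was 0.08 on the spike-in scale. Dhrs3 (0.70) and Rdh10 (0.66), which reduce and oxidise retinoids, were both higher, though Rdh10 did not pass on the adipocyte marker scale (0.34, adjusted p = 0.15).

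The alternative complement pathway, which Cfd opens, gave none higher and 2 lower of 9 tested. Cfb, the substrate of Cfd, differed by -0.12 and C3 by 0.41, and neither passed. The 2 were Cd46, a complement inhibitor (-0.81, adjusted p = 0.0011, and 0.03 on the spike-in scale), and Masp1, a lectin pathway protease (-0.45, adjusted p = 0.010, and 0.39 on the spike-in scale), whose other probe differed by 1.13 (adjusted p = 0.0028). Of 7 proteases that can cleave chemerin, 1 passed, the mast cell tryptase Tpsab1, named here after its value was seen, and 3 passed without control replicate 3.

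Over these 10 lists together, 52 of 116 tested genes passed (44.8%), 33 higher and 19 lower, against 50% of all genes. Without control replicate 3, 72 passed, 40 higher and 32 lower, against 10373 of 17392 genes. The lists share genes with cell type markers, and Pparg and Lpl are adipocyte markers too.

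**Figure D4:**
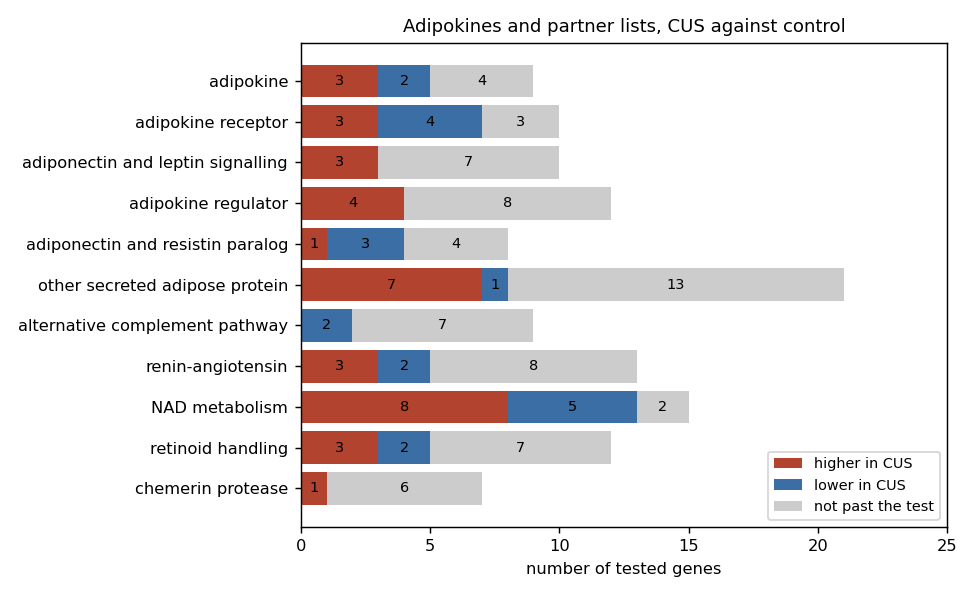
Number of tested genes (horizontal axis) that were higher in CUS, lower in CUS or not past the test, for the 9 adipokines and 10 lists of related genes, 1 bar per list. NAD metabolism had the fewest genes not past the test, 2 of 15, and other secreted proteins the most, 13 of 21.

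Markers of other cells stood beside these values. Their counts are to be read against 50% of all genes past the test, 24.2% higher and 25.8% lower. Macrophage (50%), endothelial (50%) and fibroblast and preadipocyte markers (37.5%) passed no more often than that. In bulk RNA, fewer cells of a type and less RNA per cell cannot be told apart. All 6 red blood cell markers were higher on CUS arrays, with a marker mean of 4.96 to 5.75 on CUS arrays and 0.29 to 1.18 on control arrays. Of 8 mast cell markers, 7 were higher (-2.95 to -1.47 on CUS arrays, -5.10 to -4.64 on control arrays), with Cma1 higher by 4.40 and Tpsab1 by 3.85. Macrophage markers gave 4 higher and 1 lower of 10 (1.29 to 2.34 against 0.25 to 1.57). Of the higher ones, Csf1r differed by 1.25, while its other probe differed by -1.25 (adjusted p = 6.8e-06). Leaving out 1 of 5 arrays ended the call of C1qa (adjusted p up to 0.081), and 1 of 8 that of Cd14 (up to 0.061). Mesothelial markers gave 5 higher of 7 (-0.92 to -0.27 against -2.61 to -0.83). Neutrophil markers gave 2 higher of 3 (-1.94 to -1.29 against -3.11 to -2.39). Endothelial markers gave 7 lower of 14 (-0.21 to 0.78 on CUS arrays, -0.26 to 1.66 on control arrays) and smooth muscle markers 5 lower of 7 (-2.04 to -0.58 against -1.82 to 1.06). None of these 7 endothelial markers passed on the spike-in scale. Fibroblast and preadipocyte markers gave 1 higher and 2 lower of 8 (1.25 to 2.46 against 1.61 to 2.84). Their part in the adipokine differences was not tested.

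Adipocyte markers themselves gave 4 higher and 2 lower of 10. Their mean was 4.92 to 5.27 on CUS arrays and 4.61 to 5.46 on control arrays, the top control value being replicate 3. Cidec was higher by 1.67, and Plin1 (-0.60) and Cd36 (-0.47), a fatty acid transporter, were lower. The other probe of Cd36 differed by -0.21 without passing (adjusted p = 0.20). On the spike-in scale Plin1 was at 0.24 and Cd36 at 0.37, neither past the test.

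Apln varied with the markers of several other cell types from array to array. Control replicate 3, with the lowest endothelial mean (-0.26), had the lowest Apln of the control group (-0.59), and CUS replicate 1, with the highest endothelial mean of its group (0.78), had the highest Apln (1.13). Over deviations from the group means, Apln and the endothelial mean had a Pearson r of 0.85 over 12 arrays and 0.73 without control replicate 3, as a description of arrays that share 1 scaling. With the macrophage mean r was 0.89, and 0.81 without that array, and with the smooth muscle mean 0.75, and 0.47 without it. Among CUS arrays alone r was 0.83 with the endothelial, 0.92 with the macrophage, 0.97 with the smooth muscle and 0.96 with the mast cell mean. With the adipocyte mean Apln had an r of -0.78 over 12 arrays, and -0.59 without control replicate 3. A tie to these means was not particular to Apln. Every other member had a negative r with the endothelial mean, from -0.92 for Rbp4 to -0.50 for Retn. Without control replicate 3 these ran from -0.69 for Rbp4 to -0.02 for Agt. Of the 14 endothelial markers, 7 passed as lower, among them Vwf (-1.54) and Pecam1 (-1.46), and 7 did not pass, among them Kdr (-0.49) and Flt1 (-0.37). Without control replicate 3 both of these passed, at -0.74 for Kdr and -0.68 for Flt1. On the spike-in scale none of the 7 lower markers passed, with Vwf at -0.70 (adjusted p = 0.10) and Pecam1 at -0.62 (adjusted p = 0.19). Leaving out 1 of 9 arrays ended the call of Esam (adjusted p up to 0.099), and 1 of 8 that of Cdh5 (up to 0.083).

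**Figure D5:**
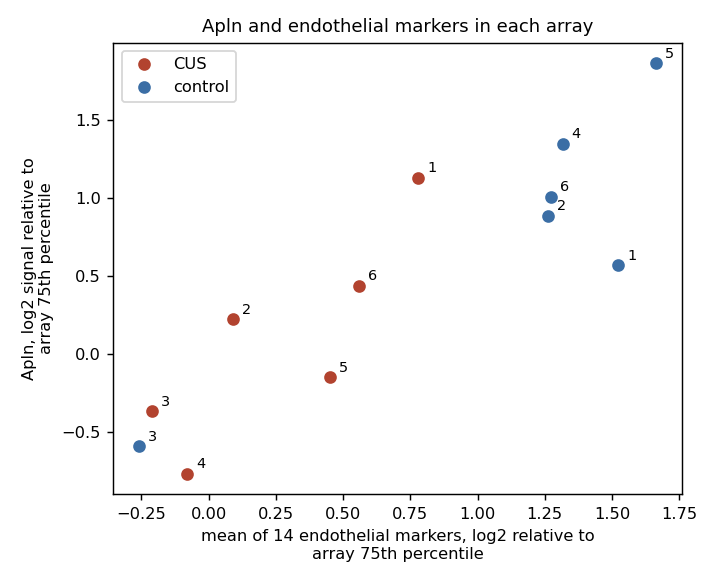
Apln log2 signal (vertical axis) against the mean of 14 endothelial markers (horizontal axis), both relative to the array's 75th percentile, 1 point per array with its replicate number, CUS and control in separate colours. CUS arrays lay between -0.21 and 0.78 on the horizontal axis, and control arrays between 1.26 and 1.66 apart from replicate 3 at -0.26.

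Some members varied together within groups and others ran against them. Over the 12 deviations from the group means, Adipoq and Rbp4 had an r of 0.96 (0.83 without control replicate 3), Lep and Agt 0.89 (0.86) and Retn and Agt 0.87 (0.84). Apln had a negative r with each of the other 8, from -0.73 with Rbp4 to -0.39 with Retn. Without control replicate 3 these were weaker, from -0.40 with Rbp4 to -0.13 with Agt. Nampt had an r of 0.51 with Adipoq and 0.19 with Lep, which were -0.27 and -0.69 without control replicate 3, and without that array its r with each of the other 8 was negative. Among 14974 other genes well above background on all arrays, those most like a member in this measure were Suclg1 and Ndufc1 for Adipoq (0.98 each), Cox5b and Ndufb8 for Lep (0.99 and 0.98), Amotl2 for Rarres2 (0.98), Rnf139 and Qki for Nampt (0.96 and 0.93), Pcnx1 for Retn (0.93), Rplp2 for Cfd (0.96), Rab13 for Apln (0.96), and Sgms1 and Rplp1 for Agt (0.96 and 0.95). The remaining genes of these pairs, both of Rbp4's among them, had no gene symbol beyond a locus or probe number. All arrays share the 75th-percentile scaling, and these r values were the highest of many, so they carry no test.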

How the data were processed

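Total RNA of 12 samples, 6 CUS and 6 control, was measured on 1-colour (Cy3) Agilent rat arrays with 60-base probes designed on build rn4. The deposited scanner files hold spot intensity values from Agilent Feature Extraction 10.7.3.1, per the file headers, background-subtracted but not normalized between arrays. The deposited series table holds intensity values that the authors had quantile normalized, since its columns share 1 distribution, and it served as an alternative.

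The log2 of the processed signal was taken minus each array's 75th percentile, outlier spots were left out and spots of a probe averaged. The probes that 6 or more of the 12 arrays showed well above background (19728 probes, 17392 genes by the brightest probe) were fitted with limma 3.58.1 in R 4.3.3, two-sided, with Benjamini-Hochberg adjustment over all probes. In a simulation of this comparison over 19728 probes, the fit called 14 of 81 probes shifted by 0.5 on the log2 scale, 44 of 56 shifted by 1 and 63 of 63 shifted by 2, and 6 unshifted probes. Only 200 probes were shifted there, whereas 8698 of 17392 genes passed in the data. The adjustment was therefore stricter in the simulation, and its shares of calls do not carry over to the data.

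The adipokines and lists were chosen with earlier results of these data known. The lists were written from textbook knowledge. Named were every member, every measured receptor, up to 4 genes per list past the test with the largest difference and well above background on all arrays, up to 3 defining markers, and 2 genes most like each member. Jak2, Stat3, Socs3, Prkab1, Nmnat1, Sirt6, Cfb, C3, Cma1 and Tpsab1 were named outside that rule, once their values were known. So were markers beyond 3 for adipocytes (Cd36 and Lpl) and for endothelium (Kdr, Flt1, Esam and Cdh5). Of 30367 probes, 17514 were named through their accession, 2669 by a current symbol and 689 by a synonym. Promoters came from RefSeq (GRCr8). The hexamers of nuclear receptors and of the glucocorticoid receptor were searched after longer elements of these receptors had given no match in any member.

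Same-numbered replicates were checked for pairing and were not treated as pairs, since only 4 of 6 correlated over 0.1. The number of arrays limits precision. The labels number the replicates and do not say that each was a separate rat, so p-values measure the spread between these samples, which may be technical. Alternatives covered scaling, background correction, filter, variance model, test, replicate block, probe choice and leaving out each array. A slide block could not be fitted.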

Additional observations from a re-analysis of the deposited data

Results flagged for a closer look

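A pair of the 20 sets of 6 values checked (the 9 adipokines and the ratio of Lep to Adipoq, in each group) held 1 array far from the rest. About 1 in 20 such sets is picked out by chance. Adipoq in control replicate 3 was 9.20, while the other 5 control arrays lay between 8.14 and 8.37. Lep in control replicate 3 was 0.0945, and the next highest control array was at -0.87, which put it only just past the limit. Both belong to the array with the high adipocyte marker mean (5.46) and the low endothelial marker mean (-0.26) of the control group, and the part of these in either value was not tested. Without that array the difference of Adipoq was 0.32 (limma, adjusted p = 0.0079) and that of Lep 0.98 (adjusted p = 0.00040).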

How the results depend on the processing

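Of 9 adipokines, 5 passed, 3 higher and 2 lower. Without each array in turn 4 to 8 passed, 3 to 5 higher and 1 to 3 lower, with 8 (5 higher, 3 lower) only without control replicate 3. The lower count was 1 without CUS replicates 3, 4 or 5 or control replicate 1. With array weights 8 passed, 5 of them higher, against 11596 of 17392 genes past the test, 5672 of them higher. With spike-in scaling 6 were higher and 0 lower, against 11420 higher and 433 lower of 17392 genes. Quantile normalization, the authors' table and the methods' t-test after Benjamini-Hochberg adjustment each gave 1 lower, and that t-test with a 2-fold change gave 1 higher and 0 lower.

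Directions reversed with spike-in scaling for Retn (0.21), Cfd (0.45), Agt (0.31) and Apln (0.083), and with adipocyte marker scaling for Adipoq (-0.15) and Rbp4 (-0.17). Of these reversed values only that of Cfd passed (adjusted p = 0.037). All of those scales differ by a constant per array. Rarres2 passed under all 13 settings and without each of the 12 arrays, and Lep and Nampt under all but the 2-fold t-test. The ratio of Lep to Adipoq was 0.54 to 0.67 without each array, and 0.52 (exact permutation p = 0.054) in the authors' table and 0.32 (p = 0.026) with normexp. The cause was not tested.

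Over all genes 8698 passed, 15603 with no filter on dim probes and 2096 by the 2-fold t-test, and 7547 to 10373 without each array. Normexp left 34.3% of calls higher. Of 116 related genes 52 passed, 85 with spike-in scaling and 17 by the 2-fold t-test, and 47 to 72 without each array.

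Same-numbered arrays correlated from -0.19 to 0.43, with 4 of 6 over 0.1 and 2 of 6 closest to their own number. The replicate block left 5 adipokines past the test, with 60 related genes (35 higher, 25 lower) and 9100 of all genes. Slide as a block could not be fitted, because each slide held 1 group. Signal over background did not limit the adipokines, but did limit Lepr.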
